A study of Rattus norvegicus with 35 samples.

Results

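The 10 genes described here make fatty acids from acetyl-CoA in the hepatocyte, switch that pathway on, or act on its products: Srebf1, Mlxipl, Acly, Acss2, Me1, Acaca, Fasn, Thrsp, Gpam and Pnpla3. They were chosen by name, and their probe sets were found through the array annotation, which assigned 19 of 31099 probe sets to one of these genes alone. They make up 10 of the 14217 genes named by at least 1 such probe set. Each gene was represented by its brightest probe set, and all 10 passed the filter on low values. Differences of every other probe set are given for 100 uM of the triazoles only. Rat liver parenchymal cells in culture (primary hepatocytes) received compounds in the medium for 72 h, and total RNA was measured on 35 Affymetrix Rat Genome 230 2.0 arrays. The 12 groups were the vehicle DMSO at 0.1%, the triazole fungicides myclobutanil, propiconazole and triadimefon at 10, 30 and 100 uM each, phenobarbital (PB) at 200 uM and PCN at 30 uM. Phenobarbital and PCN were the positive controls of the series. All treatments share the same DMSO arrays as controls, and the labels give no strain, sex or age of the rats. Groups held 3 arrays, whose titles carry a code (Rs256, Rs293 or Rs304, each once a group). PCN held 2 arrays and lacks Rs256. The series text calls the arrays of a group biological replicates, while the labels do not say what the codes mark.

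De novo lipogenesis turns surplus carbohydrate into fat. Citrate leaves the mitochondrion and is cut to acetyl-CoA, which is carboxylated to malonyl-CoA and built up to palmitate at the cost of NADPH, and the fatty acid is then desaturated, elongated and joined to glycerol. In liver the pathway is switched on at the level of transcription by SREBP-1c after insulin and by ChREBP after glucose, and sterol synthesis is under the related factor SREBP2. Triazole fungicides are made to block the sterol 14-alpha-demethylase of fungi. The 3 compounds share the triazole ring, and differ beside it by a nitrile group (myclobutanil), a ketone (triadimefon) and a dioxolane ring (propiconazole).

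Values are on the deposited log-like scale, whose base is not stated, after quantile normalization. A difference is therefore given in units of that scale and never as a fold. A gene is called when its p in limma's moderated test, adjusted by Benjamini and Hochberg over the 10490 genes tested, lay below 0.05. The fit with 1 mean per group is the main one, and the fit that also holds the Rs code as a replicate block is given beside it, since arrays of one code deviated together. The propiconazole 30 uM array of Rs293 stood apart, with the highest SD of deposited values (0.941, the next being 0.754), and results at that dose are given with and without it. Of the hepatocyte markers 11 of 12 were measured, all of them above the array median. Over all arrays Cyp2e1 was the lowest of these (percentile 58.5 of all probe sets), followed by Tat (98.4). The summed value of the 11 lay between 34.95 and 36.62 units in DMSO arrays and between 33.96 and 36.29 at 100 uM. None of the 6 measured endothelium markers lay above the median in these groups, and in DMSO 1 of 7 adipocyte, 4 of 7 macrophage, 4 of 8 stellate cell and 2 of 5 cholangiocyte markers did. The highest of each of these lists over all arrays were Cidec (percentile 94.7 of all probe sets), Lyz2 (90.2), Vim (98.7) and Epcam (96.7), while Adipoq, Lep, Plin1, Fabp4, Cfd and Lpl lay below the median.

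The 250 bases before the annotated start were available from RefSeq (build GRCr8) for 8 of the 10 genes, at 10 starts. Fasn and Acaca have no entry in that table. The stretches are shown for the 3 genes whose differences are described in most detail below. With the replicate block and at 100 uM, Acly was called lower with propiconazole, and Acss2 and Pnpla3 higher with all 3 triazoles. Capitals mark CCAAT, the NF-Y box, and GGGCGG, the GC box, each on either strand (ATTGG and CCGCCC on the other strand), and no capitals overlap.
Acly: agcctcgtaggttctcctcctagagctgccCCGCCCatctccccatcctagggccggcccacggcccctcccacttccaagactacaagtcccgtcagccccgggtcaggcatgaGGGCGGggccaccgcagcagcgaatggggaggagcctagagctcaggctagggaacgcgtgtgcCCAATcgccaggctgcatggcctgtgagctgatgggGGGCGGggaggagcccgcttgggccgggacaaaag
Acss2: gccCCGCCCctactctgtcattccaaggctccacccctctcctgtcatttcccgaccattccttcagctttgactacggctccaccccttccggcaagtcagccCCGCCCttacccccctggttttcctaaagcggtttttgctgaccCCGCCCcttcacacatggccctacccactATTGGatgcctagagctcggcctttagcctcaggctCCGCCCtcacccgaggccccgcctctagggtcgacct
Pnpla3: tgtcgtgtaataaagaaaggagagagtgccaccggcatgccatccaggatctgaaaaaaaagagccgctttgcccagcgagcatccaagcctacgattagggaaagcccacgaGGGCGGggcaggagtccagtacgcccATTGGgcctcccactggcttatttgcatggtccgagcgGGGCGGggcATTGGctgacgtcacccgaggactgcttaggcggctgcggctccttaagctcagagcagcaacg
The Acly stretch lies at chr10:85963632-85963881 on the minus strand, that of Acss2 at chr3:164464453-164464702 on the plus strand and that of Pnpla3 at chr7:117173278-117173527 on the plus strand, each printed 5′ to 3′ toward the start. Pnpla3 carried CCAAT at 111 and 64 bases and GGGCGG at 137 and 73 bases before its start, the outer base of each motif being counted. Acss2 carried 1 CCAAT, at 73 bases, and 4 GC boxes, and Acly carried 1 CCAAT, at 71 bases, and 3 GC boxes. Over the 8 genes, 7 held CCAAT in this window at any of their starts and 6 held GGGCGG. Of all 33469 promoters of that length, counted by start and not by gene, 34% and 30.5% held them. The sterol regulatory element core TCACNCCAC and the E-box CACGTG were in none of the 8, and in 0.974% and 5.59% of all promoters. A motif match here describes letters in a window and says nothing of binding.

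At 100 uM Pnpla3 and Acss2 were called higher with all 3 triazoles in the fit with the replicate block. Without the block, Acss2 was called with none of them and Pnpla3 not with myclobutanil. The transcription factor genes and the carboxylase Acaca were not called against DMSO in any treatment, in either fit. Without the block 2 of 10 genes rose with propiconazole, Pnpla3 and Gpam. Of all genes tested 6.37% were called higher there and 5.60% lower. With triadimefon 1 of 10 rose, Pnpla3, against 0.867% higher and 0.963% lower, and with myclobutanil 0 of 10 were called, against 0.639% and 0.572%. With the replicate block the counts were 4 higher and 1 lower for propiconazole (all genes 15.7% higher, 13.6% lower), 4 higher for triadimefon (6.16% and 5.65%) and 2 higher for myclobutanil (5.05% and 4.87%). The median difference over the 10 genes was 0.20 for myclobutanil, 0.14 for propiconazole and 0.20 for triadimefon, beside 0.01 over all genes tested for each. Since the 3 comparisons share the DMSO arrays, a like pattern among them is not independent. In such cultures fewer responding cells and less RNA per cell cannot be told apart.

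**Figure D1:**
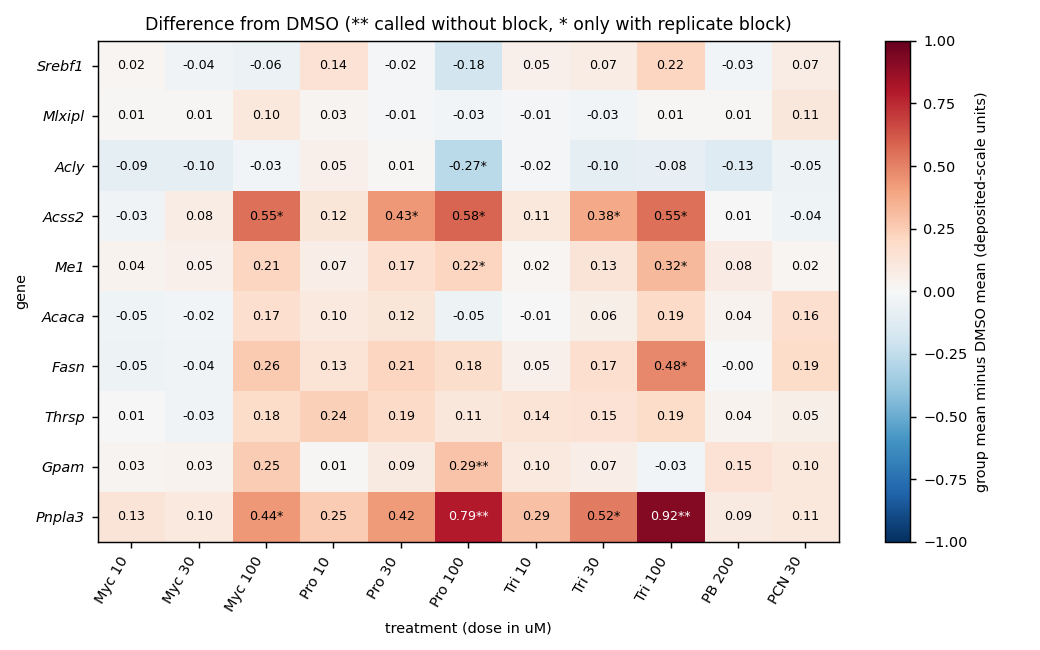
Group mean minus DMSO mean for each of the 10 genes (rows, by role) in each of the 11 treatments (columns, dose in uM), in units of the deposited scale after quantile normalization. Asterisks mark calls, with ** for the fit without the block and * for the replicate block only. Pnpla3 with triadimefon at 100 uM (0.92) and with propiconazole at 100 uM (0.79) are the darkest cells, and Acly with propiconazole at 100 uM (-0.27) is the lowest.

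Srebf1 encodes SREBP-1, the sterol regulatory element binding protein that drives the lipogenic enzymes. Its values in codes Rs256, Rs293 and Rs304 were 1.66, 1.84 and 1.72 in DMSO, 1.31, 1.72 and 1.65 with propiconazole at 100 uM and 1.72, 2.03 and 2.12 with triadimefon at 100 uM. The Rs256 array of propiconazole was the lowest of all, and both treated groups overlapped the DMSO arrays. The difference from DMSO was -0.18 (SE 0.104, n = 3 and 3, limma adjusted p = 0.309) for propiconazole and 0.22 (SE 0.104, adjusted p = 0.387) for triadimefon, so neither was called, with the block either (adjusted p = 0.0766 and 0.0625). Propiconazole was below DMSO and triadimefon above it in all 3 codes. The other Srebf1 probe set, 1371104_at, gave differences from DMSO of -0.01, -0.04 and 0.18 with myclobutanil, propiconazole and triadimefon at 100 uM, none of which passed the test.

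Mlxipl encodes ChREBP, the carbohydrate response element binding protein. It read 0.57, 0.45 and 0.61 in DMSO and 0.64, 0.57 and 0.72 with myclobutanil at 100 uM, higher in each code by 0.07 to 0.12 but with overlapping groups. The difference of 0.10 (95% interval -0.01 to 0.21) was not called (limma adjusted p = 0.539). With propiconazole and triadimefon at 100 uM the differences were -0.03 (-0.14 to 0.08) and 0.01 (-0.10 to 0.12), whose signs changed with the choice of arrays. These were the smallest differences of the 10 genes with either compound at that dose.

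Acly, ATP citrate lyase, cuts cytosolic citrate to acetyl-CoA. It read 2.94, 2.97 and 2.76 in DMSO and 2.66, 2.69 and 2.5 with propiconazole at 100 uM. Every propiconazole array lay below every DMSO array, and within codes the drop was nearly equal: 0.28 in Rs256, 0.28 in Rs293 and 0.26 in Rs304. The difference of -0.27 (SE 0.091) just missed the call without the block (limma adjusted p = 0.0509) and Acly fell in the fit with it (adjusted p = 0.00663). Over all settings tried it was lower by between 0.21 and 0.34, and called in 5 of 24 (adjusted p 0.00588 to 0.746). The blocked call was lost without code Rs304 (adjusted p = 0.106) and on the values as deposited (adjusted p = 0.546). Myclobutanil and triadimefon at the same dose left Acly at 2.75, 3.06 and 2.77 and at 2.65, 2.96 and 2.81, overlapping DMSO.

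Acss2, the acetyl-CoA synthetase of cytosol and nucleus, makes acetyl-CoA from acetate. It read 2.10, 1.70 and 1.67 in DMSO, 2.56, 2.46 and 2.10 with myclobutanil, 2.64, 2.51 and 2.06 with propiconazole and 2.65, 2.30 and 2.17 with triadimefon, all at 100 uM. Rs256 was the highest array in each of these groups, and only the triadimefon group cleared all DMSO arrays. Each treated array lay above the DMSO array of its code, by 0.43 to 0.76 with myclobutanil, 0.39 to 0.81 with propiconazole and 0.50 to 0.60 with triadimefon. The differences were 0.55, 0.58 and 0.55 (SE 0.202 each) and were not called without the block (limma adjusted p = 0.255, 0.0615 and 0.196). Acss2 rose with all 3 compounds in the fit with the block (SE 0.0723, adjusted p = 3.92e-05, 1.24e-06 and 3.07e-05), and these blocked calls held when each code was left out. On the values as deposited the blocked adjusted p was 0.0939 for myclobutanil, a lost call, 0.0473 for propiconazole and 0.0473 for triadimefon. It also rose there at 30 uM of propiconazole (0.43, adjusted p = 0.00257, or 0.0131 without the array that stood apart) and of triadimefon (0.38, adjusted p = 0.00885). The former was lost without code Rs256 (adjusted p = 0.0881), and the latter without Rs256 (adjusted p = 0.208) or Rs304 (adjusted p = 0.0946) and on the values as deposited (adjusted p = 0.484). Of the 10 genes Acss2 had the smallest share of variance left after group and code were taken out, 4.79% over the 33 arrays without PCN, with 53.9% between groups and 41.3% between codes.

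Me1, the cytosolic malic enzyme, supplies NADPH. Its brightest probe set read 1.81, 1.84 and 1.71 in DMSO and 2.23, 2.02 and 2.08 with triadimefon at 100 uM, where the groups did not overlap. The difference of 0.32 (SE 0.112) was not called without the block (limma adjusted p = 0.158), and Me1 rose with it (adjusted p = 0.00461). With propiconazole at 100 uM the difference was 0.22, called with the block alone (adjusted p = 0.0286), and with myclobutanil 0.21, not called in either fit. Both blocked calls of this probe set were lost without code Rs256 (adjusted p = 0.0894 for triadimefon and 0.192 for propiconazole) or Rs304 (adjusted p = 0.115 and 0.0736) and on the values as deposited (adjusted p = 0.15 and 0.415). The other Me1 probe set, 1370067_at, was called without the block for all 3 compounds when each probe set was tested on its own: 0.33 (adjusted p = 0.0215), 0.41 (adjusted p = 0.000266) and 0.43 (adjusted p = 0.00166) for myclobutanil, propiconazole and triadimefon. In that test 0.864%, 12% and 1.65% of 14235 probe sets were called, and 8.44%, 28.5% and 10.8% with the block.

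Acaca, acetyl-CoA carboxylase 1, makes malonyl-CoA in the committed step. It read 2.19, 2.23 and 1.94 in DMSO, 2.22, 2.49 and 2.16 with myclobutanil, 2.01, 2.35 and 1.86 with propiconazole and 2.17, 2.42 and 2.33 with triadimefon at 100 uM. All of these groups overlapped DMSO, and the Rs293 array was the highest in each. The differences were 0.17 (95% interval -0.06 to 0.40), -0.05 (-0.28 to 0.19) and 0.19 (-0.05 to 0.42), none called in either fit. The other probe set, 1387538_at, gave 0.08, 0.11 and 0.00, so the sign for propiconazole differed between the probe sets.

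Fasn, fatty acid synthase, builds palmitate from malonyl-CoA. It read 1.74, 2.19 and 1.97 in DMSO and 2.32, 2.56 and 2.45 with triadimefon at 100 uM, so that the lowest treated array lay above the highest DMSO array. The difference of 0.48 (SE 0.196) was not called without the block (limma adjusted p = 0.277), and Fasn rose with it (SE 0.0881, adjusted p = 0.000715), by 0.58, 0.37 and 0.48 within codes. This blocked call held when each code was left out, while on the values as deposited it was lost (0.57, adjusted p = 0.0861, over all settings adjusted p 0.000715 to 1). Myclobutanil at 100 uM gave 1.90, 2.65 and 2.14 and propiconazole 2.01, 2.49 and 1.93, differences of 0.26 and 0.18 that were not called in either fit. The other Fasn probe set, 1367707_at, differed by 0.49 with triadimefon, 0.16 with myclobutanil and 0.10 with propiconazole.

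Thrsp, Spot 14, is a thyroid hormone responsive protein found where fat is made. It read 2.87, 2.94 and 2.59 in DMSO and 3.09, 3.16 and 2.71 with triadimefon at 100 uM, each array above that of its own code and the groups overlapping. Differences at 100 uM were 0.18, 0.11 and 0.19 for myclobutanil, propiconazole and triadimefon (SE 0.184 each) and none was called. The 3 Thrsp probe sets gave differences between 0.07 and 0.28 in these comparisons. The code accounted for 54.5% of the variance of Thrsp, more than the groups did (19.0%), with code means of 3.09, 2.91 and 2.72 for Rs256, Rs293 and Rs304.

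Gpam, the mitochondrial glycerol-3-phosphate acyltransferase, starts the joining of fatty acids to glycerol. It read 0.60, 0.55 and 0.48 in DMSO, 0.71, 0.94 and 0.75 with myclobutanil and 0.65, 1.04 and 0.80 with propiconazole at 100 uM. Every array of these treated groups lay above every DMSO array, with Rs293 the highest, whereas triadimefon gave 0.44, 0.65 and 0.46 and overlapped DMSO. Gpam rose with propiconazole by 0.29 (SE 0.0949, limma adjusted p = 0.0482, with the block 0.0142), and the 0.25 of myclobutanil was not called (adjusted p = 0.263, with the block 0.064). The propiconazole call was close to the threshold: over the 24 settings it passed in 10 (adjusted p 0.00232 to 0.398), and without the block it was lost without any 1 DMSO array, without the treated array of Rs293 (0.18) or Rs304, without code Rs293 or Rs304, and on the values as deposited. The blocked call was lost too without code Rs293 (0.19, adjusted p = 0.198) and without code Rs304 (0.27, adjusted p = 0.161). The other probe set, 1369758_at, differed by 0.24 with propiconazole (adjusted p = 0.0318 when tested on its own), 0.20 with myclobutanil and -0.04 with triadimefon.

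Pnpla3 encodes a patatin-like phospholipase of the lipid droplet, and its transcript in liver is known to follow feeding and SREBP-1c. It had the largest differences of the 10 genes at 100 uM of propiconazole and triadimefon. Its values were 0.35, 0.57 and 0.36 in DMSO, 1.41, 1.31 and 0.94 with propiconazole and 1.75, 1.28 and 1.01 with triadimefon at 100 uM. Both treated groups lay wholly above the DMSO arrays, and Rs304 was the lowest array in both. Pnpla3 rose by 0.79 with propiconazole (SE 0.156, n = 3 and 3, limma adjusted p = 0.00108, with the block 2.03e-05) and by 0.92 with triadimefon (adjusted p = 0.00249, with the block 3.07e-05). Propiconazole's rise passed in all 24 settings tried, at 0.57 to 0.93 (adjusted p 2.03e-05 to 0.031). Triadimefon's rise passed in 22 of 24, at 0.68 to 1.09 (adjusted p 3.07e-05 to 0.112). It was lost when the fit held only these 2 groups (adjusted p = 0.112) and, without the block, when code Rs256 was left out (0.68, adjusted p = 0.0873), whose own difference of 1.40 was larger than the 0.71 and 0.65 of the other codes.

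Lower doses of propiconazole and triadimefon went the same way for Pnpla3. It read 0.63, 0.68 and 0.73 at 10 uM, and 0.88, 0.92 and 0.76 at 30 uM of propiconazole, and 0.64, 0.78 and 0.75, then 1.17, 0.96 and 0.73 with triadimefon. Each of these 12 arrays lay above all DMSO arrays, although no call was made at 10 uM in either fit. They are all set against the same DMSO arrays, and the share of all genes with such a gap was not counted. At 30 uM the differences were 0.42 (adjusted p = 0.593, with the block 0.0596) and 0.52 (adjusted p = 0.49, with the block 0.0299), a blocked call that was lost when any 1 code was left out. Without the propiconazole 30 uM array that stood apart, the difference at that dose was 0.39 (adjusted p = 0.842, with the block 0.111). Myclobutanil overlapped DMSO at 10 and 30 uM, with differences of 0.13 and 0.10. It gave 0.82, 1.16 and 0.61 at 100 uM, above DMSO by 0.47, 0.58 and 0.25 within codes. The difference of 0.44 was called with the block alone (adjusted p = 0.0225, without it 0.235). That call was lost without code Rs293 (adjusted p = 0.174) or Rs304 (adjusted p = 0.0994) and on the values as deposited (adjusted p = 0.199). The other Pnpla3 probe sets, 1391544_at and 1380643_at, differed by 0.55 and 0.38 with propiconazole and by 0.96 and 0.37 with triadimefon. Both were called for these compounds when tested on their own. With myclobutanil at 100 uM they differed by 0.33 and 0.14, not called without the block (limma adjusted p = 0.437 and 0.647). With the block 1391544_at was called there (adjusted p = 0.0351) and 1380643_at was not (adjusted p = 0.335). The level of 1380643_at was low, below the array median in every DMSO array (-0.13 to -0.05).

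**Figure D2:**
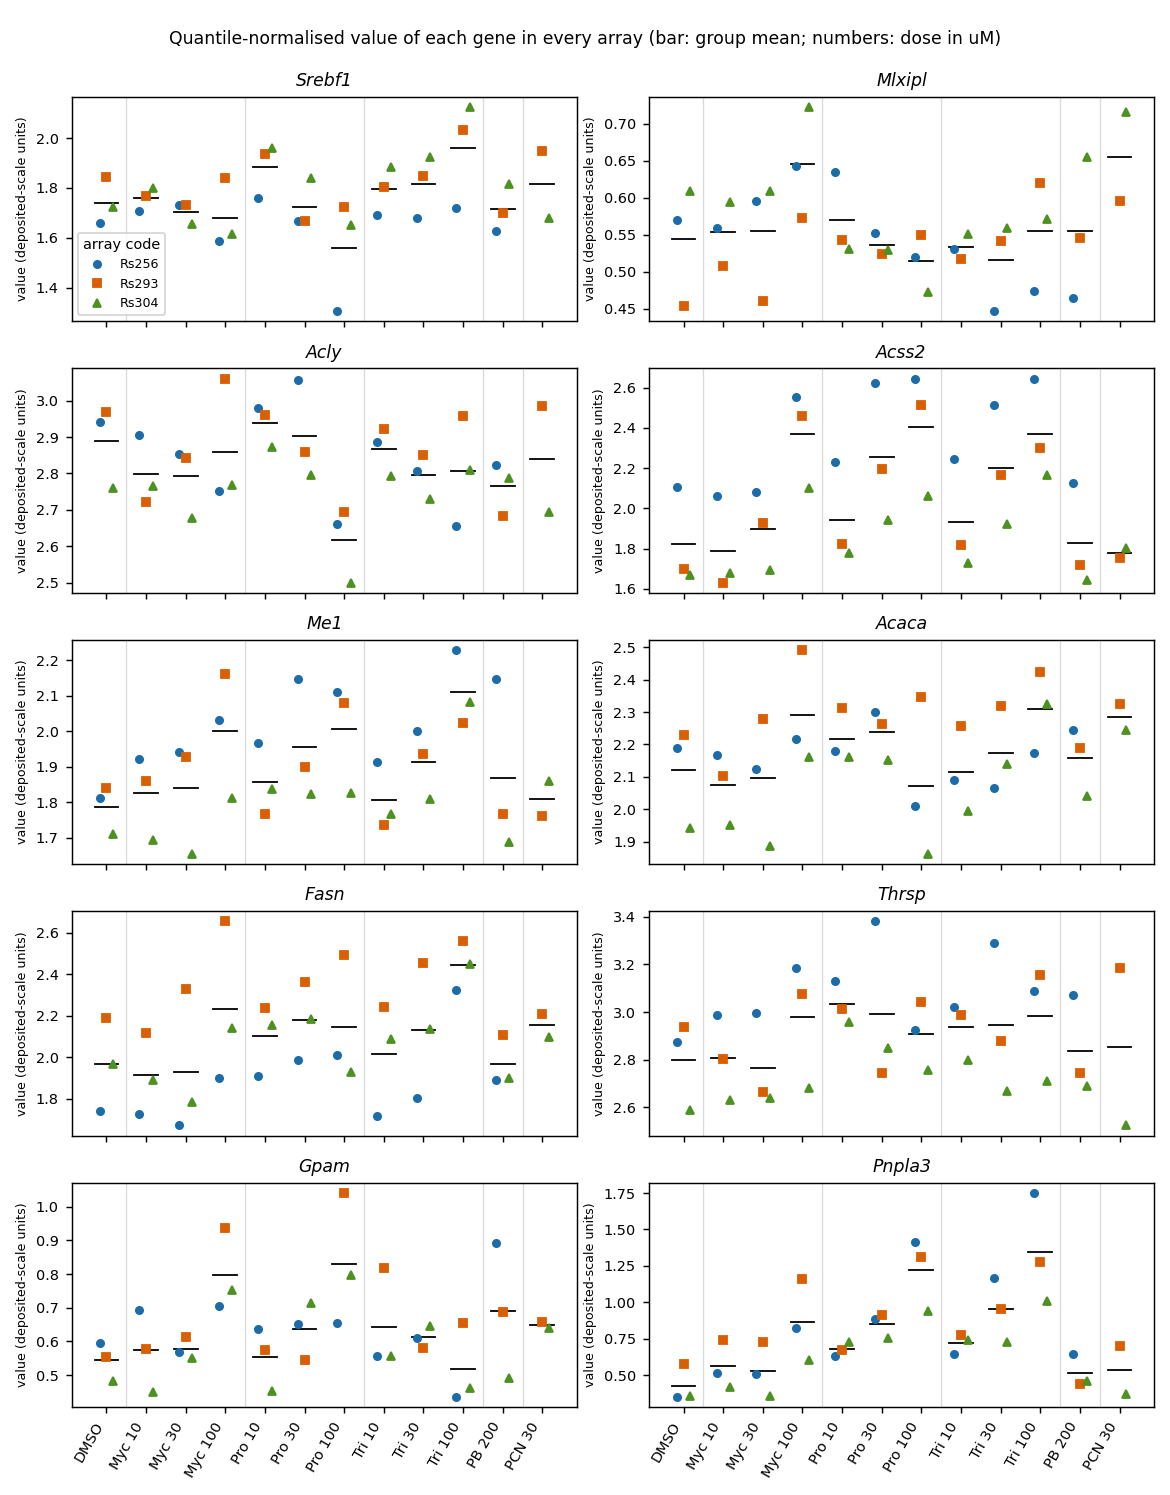
Value of each of the 10 genes in every array, by group (x axis, Myc, Pro and Tri for the triazoles, dose in uM) in units of the deposited scale after quantile normalization; the marker gives the array code and the bar the group mean, and each y axis has its own range and does not start at 0. The highest Pnpla3 values are those of Rs256 at 100 uM of propiconazole (1.41) and triadimefon (1.75), and Acly reads 2.5 to 2.69 in the 3 propiconazole arrays at 100 uM, below every DMSO array (2.76 to 2.97).

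**Figure D3:**
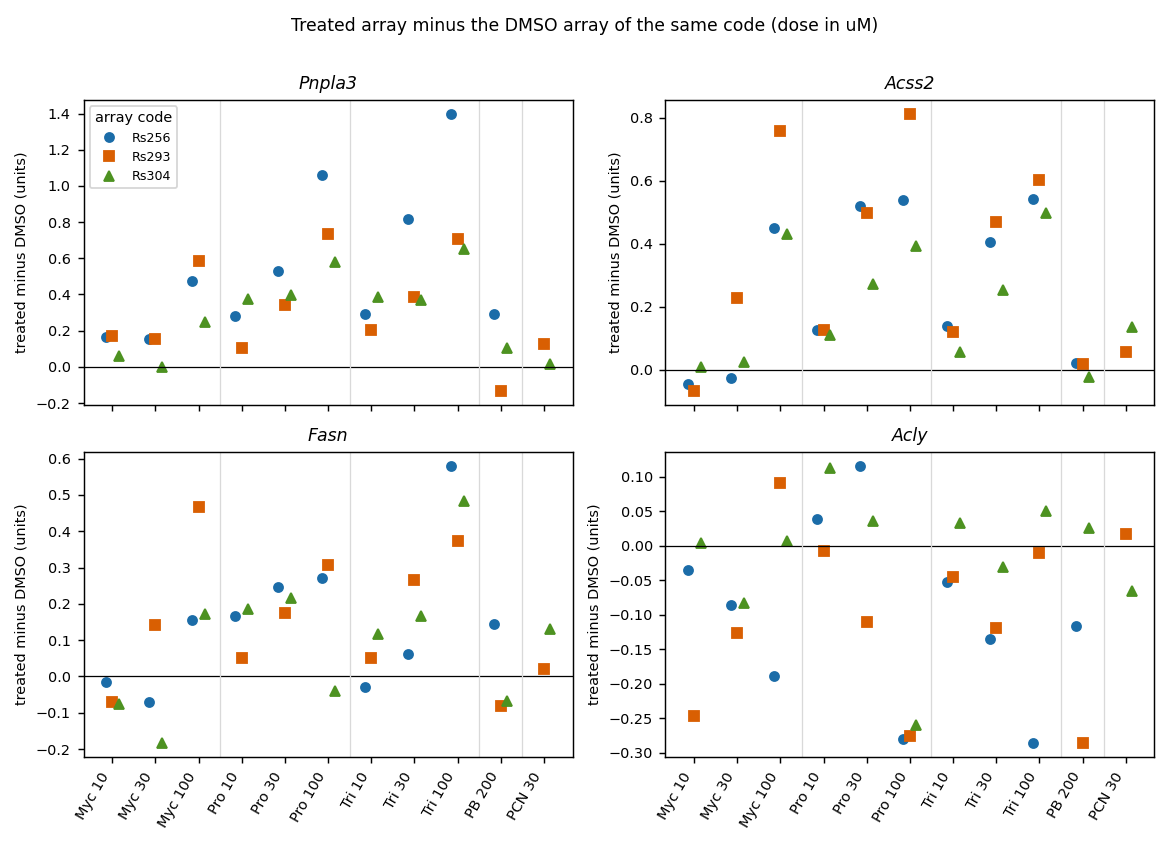
Treated array minus the DMSO array of the same code for Pnpla3, Acss2, Fasn and Acly (y axis, units of the deposited scale) in each treatment (x axis, dose in uM), with 1 marker per code. All markers of Pnpla3 and Acss2 with propiconazole and triadimefon lie above 0, and the 3 Acly markers with propiconazole at 100 uM lie between -0.28 and -0.26.

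**Figure D4:**
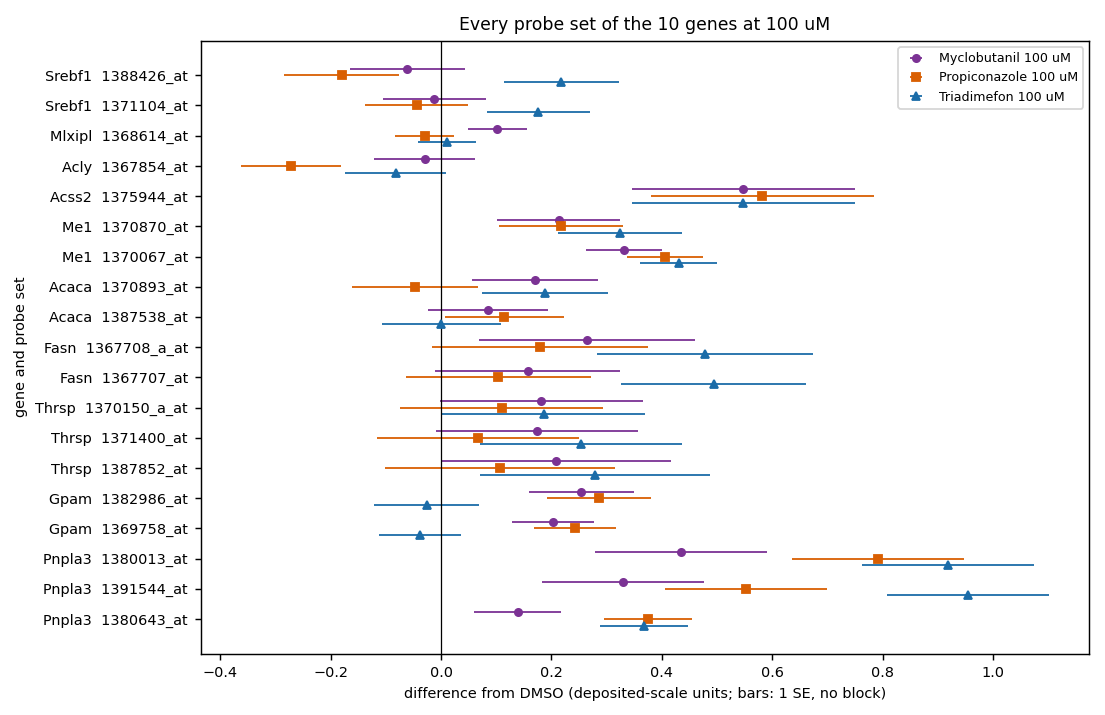
Difference from DMSO at 100 uM for each of the 19 probe sets (y axis, gene and probe set; x axis, units of the deposited scale) with 1 SE from the fit without the block, for the 3 triazoles. The highest point is a Pnpla3 probe set with propiconazole (0.79) and with triadimefon (0.96), the lowest of the 3 Pnpla3 probe sets lies at 0.38 and 0.37, below the Acss2 point (0.58 and 0.55), and the Me1 probe set 1370067_at has narrower bars than the brighter one.

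No member was called at 10 uM of any triazole or with myclobutanil at 30 uM, in either fit. At 10 uM 0%, 0.00953% and 0% of all genes tested were called with myclobutanil, propiconazole and triadimefon, and 0.00953%, 0.0191% and 0.00953% with the block. At 30 uM 1 of 10 was called with the block for propiconazole (Acss2, all genes 2.62%) and 2 of 10 for triadimefon (Acss2 and Pnpla3, all genes 1.05%), and none without it (all genes 0.0381% and 0.0286%), nor for myclobutanil (0.00953%, with the block 0.0191%). Without the propiconazole array that stood apart these counts were the same, 0 and, with the block, 1. At an unadjusted p under 0.05 in limma's test, myclobutanil at 10 and 30 uM had 0 of the 10 genes in either fit, where 21 and 120 of the 10490 genes tested passed (61 and 532 with the block). At 10 uM propiconazole had 0 (2 with the block) against 99 (402) of all genes, and triadimefon 0 (1 with the block) against 130 (438). At 30 uM propiconazole had 2 (4 with the block) against 629 (1648) of all genes, and triadimefon 1 (2 with the block) against 508 (1361).

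Phenobarbital and PCN, the positive controls, gave no call among the 10 genes in either fit, and 0 of 10 had an unadjusted p under 0.05, against 96 and 187 of 10490 genes tested (437 and 595 with the block). Over all genes 0.00953% were called for each without the block, and 0.0191% and 0.0286% with it. Phenobarbital differences ran from -0.13 for Acly to 0.15 for Gpam, and PCN differences from -0.05 for Acly to 0.19 for Fasn. PCN has no Rs256 array, and with the block its Fasn difference was 0.08, that of Acss2 was 0.09 in place of -0.04, and Acaca had the largest of the 10 (0.16, the same as without the block). Pnpla3 read 0.64, 0.44 and 0.46 with phenobarbital and 0.70 and 0.37 with PCN, overlapping DMSO. Of the other genes Acaca (2.32 and 2.24) and Gpam (0.66 and 0.64) had both PCN arrays above all DMSO arrays. Their 95% intervals of the difference were -0.10 to 0.43 and -0.11 to 0.32. The share of all genes with both PCN arrays above DMSO was not counted, so no PCN effect is read from this.

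Slopes over 10, 30 and 100 uM, per log10 unit of dose and without DMSO, were called for Pnpla3 (0.54, SE 0.156, limma adjusted p = 0.0277) and for Acly (-0.32, SE 0.091, adjusted p = 0.0243) with propiconazole, where 8.73% of all genes were called. With the block Acss2 (0.46), Gpam (0.28) and Srebf1 (-0.32) were called too, against 24.8% of all genes. The Srebf1 slope began above DMSO, with means of 1.88 at 10 uM and 1.56 at 100 uM beside 1.74 in DMSO. Srebf1 was not called against DMSO at any propiconazole dose. For triadimefon no slope was called without the block (0.0763% of all genes), and with it Pnpla3 (0.63), Acss2 (0.44), Fasn (0.43) and Me1 (0.31) were (2.93%). For myclobutanil the count was 0 without the block (0.248%) and 2 with it, Acss2 (0.59) and Fasn (0.32), against 6.63% of all genes. Across settings the propiconazole slope of Acly was called in 15 of 26 and that of Pnpla3 in 16 of 26, and no direction changed. The slopes called only with the block passed in fewer settings: for propiconazole Srebf1 in 8, Acss2 in 6 and Gpam in 5 of 26, for triadimefon Acss2 in 4 and Pnpla3, Fasn and Me1 in 3 each of 27, and for myclobutanil Acss2 in 6 and Fasn in 2 of 27. Without the 30 uM array that stood apart the counts for propiconazole were again 2 and, with the block, 5.

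The triazoles were set against each other at matched doses, in 9 pairs. At 10 and 30 uM none of the 10 genes was called in either fit, and 0% of all genes were called in each of these 6 pairs. When p was adjusted over all genes and all 9 pairs together, Acss2 passed with the block for propiconazole against myclobutanil at 30 uM (difference 0.35, interval 0.20 to 0.50, limma adjusted p = 0.0166, against 0.264 within that pair and 1 without the block). For this pair the adjustment over 9 pairs was the more lenient one, since it draws on the 100 uM pairs, where more genes were called. Without the array that stood apart this Acss2 difference was 0.35 with the block (adjusted p = 0.185 within the pair). The adjustment over the 9 pairs was not repeated without that array. Triadimefon exceeded myclobutanil at 30 uM by 0.30 in Acss2, which did not pass (0.058 over the 9 pairs). At an unadjusted p under 0.05 in limma's test, propiconazole and triadimefon against myclobutanil at 30 uM each had 1 of the 10 genes (220 and 99 of 10490 genes tested) and 3 with the block (727 and 389). At 10 uM propiconazole against myclobutanil had 0 (39 of all genes) and 2 with the block (278), and the other 3 of these pairs had 0 in either fit (5 to 50, with the block 33 to 224). Over the 6 pairs at 10 and 30 uM and the 10 genes the differences lay between -0.10 and 0.42, and the 95% intervals with the block between -0.35 and 0.67. Leaving out the array that stood apart gave 0 calls too, in both fits. At 100 uM no member was called without the block in any pair, where 0.744% of all genes were called for propiconazole against myclobutanil, 0.505% for propiconazole against triadimefon and 0% for triadimefon against myclobutanil. With the block the shares were 7.09%, 4.59% and 0.00953%, and 1, 3 and 0 of the 10 genes were called. At an unadjusted p under 0.05 in limma's test 3, 4 and 3 passed without the block, against 987, 763 and 200 of 10490 genes tested, and 4, 5 and 4 with it, against 2135, 1812 and 687.

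Propiconazole, with the dioxolane ring, and triadimefon, with the ketone, differed most in Srebf1, which was lower with propiconazole by 0.40 (means 1.56 and 1.96, 95% interval -0.55 to -0.24 with the block). Its adjusted p was 0.102 without the block and 0.00255 with it, and 0.38 and 0.0101 when adjusted over all genes and all 9 pairs together. The blocked call was lost without code Rs304 (adjusted p = 0.103) and on the values as deposited (adjusted p = 0.111). On the other Srebf1 probe set, 1371104_at, the means were closer, 0.73 with propiconazole and 0.95 with triadimefon. Its arrays overlapped there, at 0.62 to 0.81 and 0.69 to 1.12. Fasn was lower with propiconazole by 0.30 and Gpam higher by 0.31, with adjusted p of 0.0493 and 0.0372 with the block, neither of which held over the 9 pairs (0.173 and 0.133). Against myclobutanil, with the nitrile, propiconazole had Acly lower by 0.24 (adjusted p = 0.0463 with the block, 0.207 over the 9 pairs). Over the 24 settings these Fasn, Gpam and Acly differences were called in 2, 3 and 3. Pnpla3 was higher by 0.48 with triadimefon than with myclobutanil (interval 0.23 to 0.73 with the block), which was not called (adjusted p = 0.304, over the 9 pairs 0.079), and its difference between propiconazole and triadimefon was -0.13 (-0.38 to 0.13). Acss2 differed by 0.03, 0.03 and 0.00 in the 3 pairs, with blocked intervals inside -0.15 to 0.18, which do not show that the compounds act alike.

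**Figure D5:**
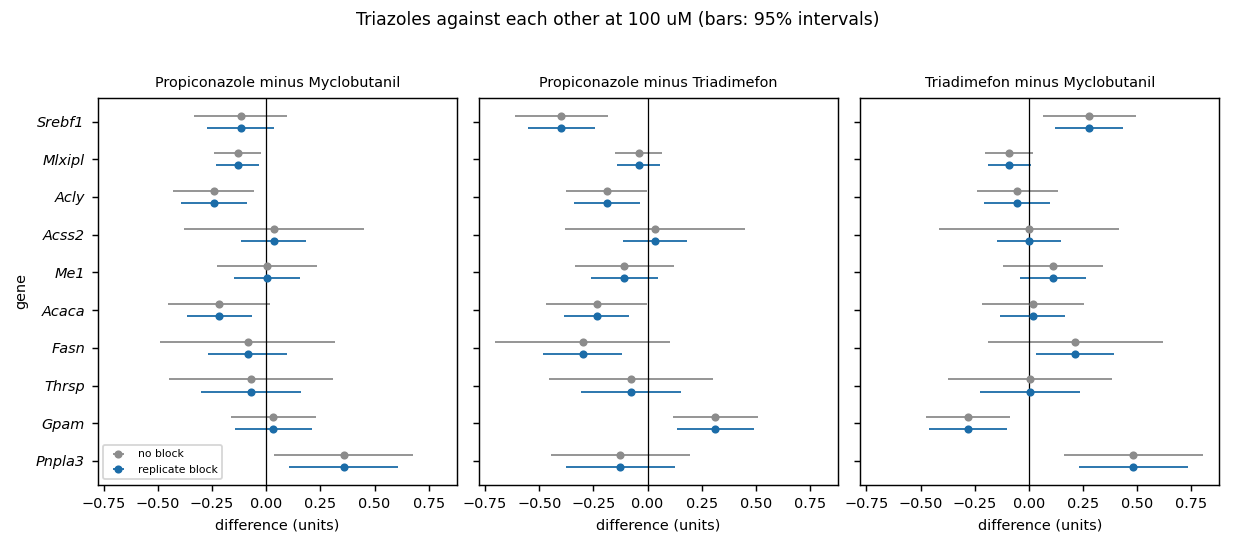
Difference between triazoles at 100 uM for each of the 10 genes (x axis, units of the deposited scale; bars, 95% intervals) without the block (grey) and with the replicate block (blue). Srebf1 lies furthest below 0 for propiconazole minus triadimefon (-0.40), and the Acss2 points lie within 0.03 units of 0 in all 3 pairs.

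Arrays of one code kept a common level in several of the genes. The code accounted for 53.7% of the variance of Fasn over 33 arrays, with means of 1.88, 2.34 and 2.06 in Rs256, Rs293 and Rs304, and for 9.52% of that of Pnpla3, where the groups accounted for 75.1%. Rs256 was the lowest code for Fasn and the highest for Acss2 (2.35, against 2.02 and 1.85), so a code did not move the genes of the pathway one way. After each code's mean was removed, Fasn and Me1 were the most alike pair among the 10 over the 35 arrays (r = 0.878), followed by Acss2 and Pnpla3 (r = 0.817). Srebf1 and Gpam were the least alike (r = -0.304), and Acly and Pnpla3 had r = -0.3. Of all genes tested Fasn was most like Me1, Elovl6 (r = 0.852), Fads1, Epas1 and Acss2, and Pnpla3 was most like Xkr8 (r = 0.937), Fads2 (r = 0.919), Fads1, Dram1 and Tprg1l. These values describe 35 arrays that share treatments and codes.

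Other genes of the pathway were read from lists, and at most 10 called genes per comparison are named, by size of the change. A gene not named for a compound may therefore have been called for it too. Of 10 tested genes of elongation and desaturation, 2, 3 and 3 rose with myclobutanil, propiconazole and triadimefon at 100 uM and none fell (4, 5 and 5 rose and 1, 0 and 0 fell with the block), with list medians of 0.15, 0.14 and 0.24. Scd2, a stearoyl-CoA desaturase, rose by 1.74, 2.01 and 2.08, and Fads2, the delta-6 desaturase, by 0.45, 0.72 and 0.85. Fads1, the delta-5 desaturase, rose with propiconazole (0.71) and triadimefon (0.85) and had a difference of 0.60 with myclobutanil (limma adjusted p = 0.0666). Of 9 tested sterol synthesis targets of SREBP2, 3, 7 and 1 rose (8, 8 and 7 with the block), with medians of 0.34, 0.41 and 0.27. Mvd rose with all 3 (0.36, 0.51 and 0.40), Cyp51, the sterol demethylase, with myclobutanil (0.44) and propiconazole (0.53), and Fdft1, squalene synthase, with myclobutanil (0.34). For both lists the median of all genes tested was 0.01 in each comparison. Of all genes tested 0.639%, 6.37% and 0.867% were called higher with myclobutanil, propiconazole and triadimefon, and 0.572%, 5.60% and 0.963% lower. With the block the shares were 5.05%, 15.7% and 6.16% higher and 4.87%, 13.6% and 5.65% lower. The same shares stand beside the list and marker counts that follow.

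Among 16 regulators of SREBP and ChREBP, 1, 2 and 2 rose and none fell (1, 2 and 3 rose and none fell with the block). The list medians were 0.04, 0.05 and 0.02. Insig1, which holds SREBP in the endoplasmic reticulum and is itself an SREBP target, rose by 0.49, 0.39 and 0.51 in the 3 comparisons. Mid1ip1, a relative of Thrsp that binds acetyl-CoA carboxylase, rose with triadimefon (0.22). Of 12 tested genes of carbon and NADPH supply, 1, 1 and 0 rose and 1, 4 and 1 fell (1, 1 and 3 and 1, 6 and 2 with the block), with medians of -0.03, -0.24 and -0.10. Txnip, a thioredoxin-binding protein and classical ChREBP target, fell by 0.72, 1.0 and 0.73, Gpd1, which makes glycerol-3-phosphate, fell with propiconazole (-0.46), and Tkt, a transketolase, rose with myclobutanil (0.45).

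Of 16 tested genes of triglyceride assembly and droplets, 1 rose and 3 fell with propiconazole and none was called with the other compounds (3 and 4 with the block, and 1 and 1 for myclobutanil). Plin2, which coats lipid droplets, fell by 0.56 with propiconazole, and the list medians were 0.01, -0.03 and 0.03. Of 8 tested relatives of the members, 3 rose and 2 fell with propiconazole and none was called with the others. With the block 4 rose and 2 fell with propiconazole, and 2 rose and 2 fell with each of the others, with medians of 0.03, 0.07 and 0.07. Aacs, acetoacetyl-CoA synthetase, rose by 0.48 with propiconazole and Acss3, a mitochondrial relative of Acss2, fell by 0.74.

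Some markers of cell type moved in the same arrays. Of 11 hepatocyte markers 2, Ambp and Hp, fell with propiconazole (by 0.34 and 0.24) and with triadimefon (by 0.18 and 0.17), and none was called with myclobutanil without the block. With the block 1 rose with each compound, and 2, 3 and 2 fell with myclobutanil, propiconazole and triadimefon. Of 3 tested adipocyte markers Cidec, which is also a lipid droplet gene of fatty liver, fell with propiconazole (by 0.67), and with the block with myclobutanil (by 0.39) and triadimefon (by 0.48). The summed value of the 7 measured adipocyte markers ran from 0.36 to 0.76 in DMSO and from -0.36 to 0.46, 0.10 to 0.28 and 0.09 to 0.61 with propiconazole, myclobutanil and triadimefon at 100 uM. Of 5 tested macrophage markers Cd68 rose with propiconazole (0.80). With the block 1 macrophage marker rose with propiconazole, 1 with triadimefon and 0 with myclobutanil. The sum of the 7 measured ran from 0.27 to 1.59 in DMSO and from 1.03 to 1.84, 0.66 to 2.01 and 0.75 to 1.87 with propiconazole, myclobutanil and triadimefon. Over all arrays Lyz2 (percentile 90.2), Cd68 (67.3), Aif1 and Clec4f lay above the array median and Cd163, Ptprc and Csf1r below it, and 3 to 5 of the 7 were above it in each group. None of the 5 tested stellate cell and 4 tested cholangiocyte markers was called without the block. With it 1 stellate cell marker fell with propiconazole. The part of these shifts in the differences of the 10 genes was not tested.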

How the data were processed

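RNA from 35 cultures was measured on 1-colour Affymetrix arrays, and only the authors' value table was used here. Its values were deposited as a score on a log-like scale, whose base, probe summary, background correction and normalization are not given in the sources used here. Array medians lay between -0.03 and 0.02 and SDs between 0.646 and 0.941, so arrays were quantile-normalized over all 31099 probe sets (limma 3.58.1, R 4.3.3). The number of arrays limits the precision.

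Probe sets were named from the platform annotation: 20826 named 1 gene, 436 several, 9780 none, and 57 were control probe sets. A gene was its brightest probe set among those naming it alone, and was tested if above the array median in at least 2 arrays (10490 of 14217). limma's lmFit and eBayes were fitted on all 35 arrays with 1 mean per group and a spread shared by all groups, for 11 treatments against DMSO, 9 pairs and 3 dose slopes. Tests were two-sided, with Benjamini-Hochberg adjustment over all tested genes within a comparison. The fit was tested on simulated data.

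The Rs code, taken from the sample titles, entered as a replicate block in the other fit. With group means removed, same-code arrays correlated at r 0.037 to 0.952 (187 pairs, median 0.634). Those of the groups compared did so at 0.277 to 0.952 (86 pairs, median 0.7). All were positive, so the code was taken to pair the arrays. Arrays of different code and group had a median of -0.355, which is not a separate check. Deviations from a group mean cancel out within the group, so positive values between same-code arrays by themselves bring negative ones here. The p-values measure the spread between these arrays.

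The 10 genes, the pathway and marker lists and the tests were chosen with earlier results of these data known. The genes named are all 10 with every probe set, the pathway genes called at 100 uM (at most 10 per comparison by size), the 5 genes most like Fasn and Pnpla3, and, chosen after their values were seen, the markers that were called and Fads1 beside its call. Other settings tried were the normalization, the probe set summary, the filter, the groups in the fit and leaving out arrays or codes. Promoter sequences are RefSeq's (GRCr8); the array data name no genome build.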

Additional observations from a re-analysis of the deposited data

How the results depend on the processing

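Without the block the counts of the 10 genes called were 2 for propiconazole at 100 uM, 1 for triadimefon at 100 uM and 2 for the propiconazole slope, and 0 elsewhere. With the replicate block they were 5 and 4 at 100 uM of propiconazole and triadimefon, 2 for myclobutanil at 100 uM, 1 and 2 at 30 uM of propiconazole and triadimefon, 1 and 3 for propiconazole against myclobutanil and against triadimefon, and 2, 5 and 4 for the slopes of myclobutanil, propiconazole and triadimefon. No other count moved by more than 1.5 times with the replicate block. Applying the replicate block to deposited values, each blocked fit without an array or code, and the fits without the array that stood apart were chosen after seeing the data.

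The propiconazole 100 uM count was 1 on the values as deposited, with median centring, with median and scale, with no filter, and with only the groups compared. The propiconazole slope count was 0 as deposited and with median centring, and 1 with the mean of the probe sets and with only the groups compared. The triadimefon 100 uM count was 2 with the mean of the probe sets and 0 with only the groups compared. On the values as deposited with the replicate block, the counts at 30 uM of propiconazole and 100 uM of triadimefon were 1 and 2.

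Leaving out arrays or codes, in either fit, gave counts of 0 to 3 for myclobutanil at 100 uM and its slope, 0 to 1 for propiconazole at 30 uM, 1 to 5 for propiconazole at 100 uM, 0 to 5 for its slope, 0 to 2 and 0 to 4 for triadimefon at 30 and 100 uM, and 0 to 4 for its slope. For propiconazole against myclobutanil the range was 0 to 1 at 30 and at 100 uM, and against triadimefon 0 to 3 at 100 uM. Without the propiconazole 30 uM array of Rs293 and with the replicate block, counts were 2 at 100 uM of myclobutanil and for its slope, 1 and 5 at 30 and 100 uM of propiconazole, 5 for its slope, 2 and 4 at 30 and 100 uM of triadimefon, 4 for its slope, and 1 and 2 for the pairs. Blocked fits without code Rs256, Rs293 or Rs304 gave 3, 1 and 1 for myclobutanil at 100 uM and for its slope.

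Of single genes, only differences that were never called changed sign. On the values as deposited, in either fit, Acly was 0.039 with myclobutanil and 0.039 with triadimefon at 100 uM, and with median centring 0.0299 and 0.0327. With the mean of the probe sets Acaca was 0.0334 with propiconazole. Mlxipl with triadimefon was -0.0041 with median centring and -0.013 with median and scale. Leaving out arrays or codes, Acly ran from -0.1306 to 0.049 with myclobutanil and from -0.158 to 0.0192 with triadimefon, Acaca from -0.1839 to 0.0575 with propiconazole, Mlxipl from -0.0931 to 0.0229 with propiconazole and from -0.0664 to 0.0643 with triadimefon, and Gpam from -0.0949 to 0.0406 with triadimefon. The cause of these changes was not tested. With the block and without code Rs256, Acaca was 0.0179 with propiconazole. The smallest differences that 3 arrays a group can show are limited by the 95% intervals given above.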
